A study of Mus musculus with 4 samples.

Results

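The 8 genes described here encode the transcription factors that establish and hold the hepatocyte programme: Hnf4a, Foxa1, Foxa2, Foxa3, Cebpa, Cebpb, Onecut1 and Prox1. They were chosen by name, located with the GENCODE vM21 annotation of GRCm38, and make up 8 of the 21938 protein-coding genes on chromosomes 1 to 19, X and Y. Every peak of chromatin accessibility (ATACseq, in which the Tn5 transposase cuts open DNA) and of the histone variant H2A.Z (ChIPseq on chromatin digested with micrococcal nuclease) in the body of these genes or within 10 kb of their transcription start site (TSS) was taken, from the list of each of 4 libraries. For each assay there was 1 library from a WT liver and 1 from a Uhrf1hepKO liver, and the same 2 livers gave both assays. All mice were male C57Bl/6 animals of 8 to 12 weeks on a normal diet. The WT mouse carried floxed alleles of Uhrf1 (Uhrf1 fl/fl) and no Cre, and the Uhrf1hepKO mouse carried the same floxed alleles with Alb:Cre. The albumin promoter drives this Cre in hepatocytes, so that Kupffer cells and endothelial cells keep Uhrf1, a factor that directs the maintenance of DNA methylation. Whole liver tissue was used, and a difference in the share of a cell type cannot be told apart from a difference in the signal per cell.

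Liver-enriched transcription factors bind each other's regulatory regions as well as those of the genes for albumin, apolipoproteins and metabolic enzymes. FOXA proteins are pioneer factors that can bind their sites in closed chromatin, HNF4A is a nuclear receptor on which most hepatocyte gene expression depends, and C/EBP proteins couple the programme to metabolism and the acute phase response. H2A.Z replaces H2A in nucleosomes beside active and poised promoters and at enhancers, and it is usually depleted where DNA is methylated, while an ATACseq peak marks DNA that is free enough of nucleosomes to be cut.

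With 1 library per condition there was no replicate error and no test between genotypes was possible, so levels are given for each library and intervals cover counting error only. The lists held 10582 WT and 10764 Uhrf1hepKO ATACseq peaks and 51450 WT and 47135 Uhrf1hepKO H2A.Z peaks. A fold is the enrichment that the authors' caller gave over the local background of the same library, and it was compared within a list only. The most frequent fold in each ATACseq list, held by 253 WT and 291 Uhrf1hepKO peaks, was read as a whole pileup. It then stood for 8 reads over a background of 1.56 in WT and 9 reads over 2.0 in Uhrf1hepKO, a background 1.29 times as high. The caller averaged ATACseq values over each peak, so this is a rough estimate from a small part of each list. The background of the H2A.Z lists was 3.10 and 3.30 reads. Peak lists cannot measure the deletion itself, and Uhrf1 had 1 ATACseq and 1 H2A.Z peak near its TSS in each genotype. Of the 5 hepatocyte marker genes looked at, 0 had an ATACseq peak within 10 kb in WT and 2 in Uhrf1hepKO, and 2 and 1 had an H2A.Z peak. The markers of Kupffer cells had an H2A.Z peak at 1 of 5 genes and those of endothelial cells at 1 of 5 genes in each genotype, both with 0 genes near an ATACseq peak. The stellate cell markers had 0 of 4 genes near a peak of either assay, and the cholangiocyte markers had 1 of 4 with H2A.Z in each genotype and 1 of 4 (Sox9, fold 3.56) with an ATACseq peak in WT and 0 of 4 in Uhrf1hepKO. With every annotated transcript start in place of the TSS, H2A.Z was near 1 of 4 stellate and 2 of 5 endothelial markers in each genotype. The other marker counts stayed the same.

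In total, 31 peaks lay at the 8 genes, 28 of them H2A.Z and 3 ATACseq. In WT liver, H2A.Z was found within 10 kb of the TSS at 5 of the 8 genes, namely Foxa1, Foxa2, Foxa3, Cebpb and Prox1. In Uhrf1hepKO liver it was found at those 5 and at Cebpa and Onecut1, which makes 7 of 8. Hnf4a had no H2A.Z peak in either genotype. The share of all protein-coding genes with such a peak was 58.4% in WT and 56.5% in Uhrf1hepKO, against 62.5% (exact binomial 95% interval 24.5 to 91.5) and 87.5% (47.3 to 99.7) of the 8 genes. Both intervals over 8 genes are wide and hold the share of all genes. A peak in Uhrf1hepKO and none in WT was found at 2 of 8 genes against 2.45% of all genes, and a peak in WT and none in Uhrf1hepKO at 0 of 8 against 4.30%.

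**Figure D1:**
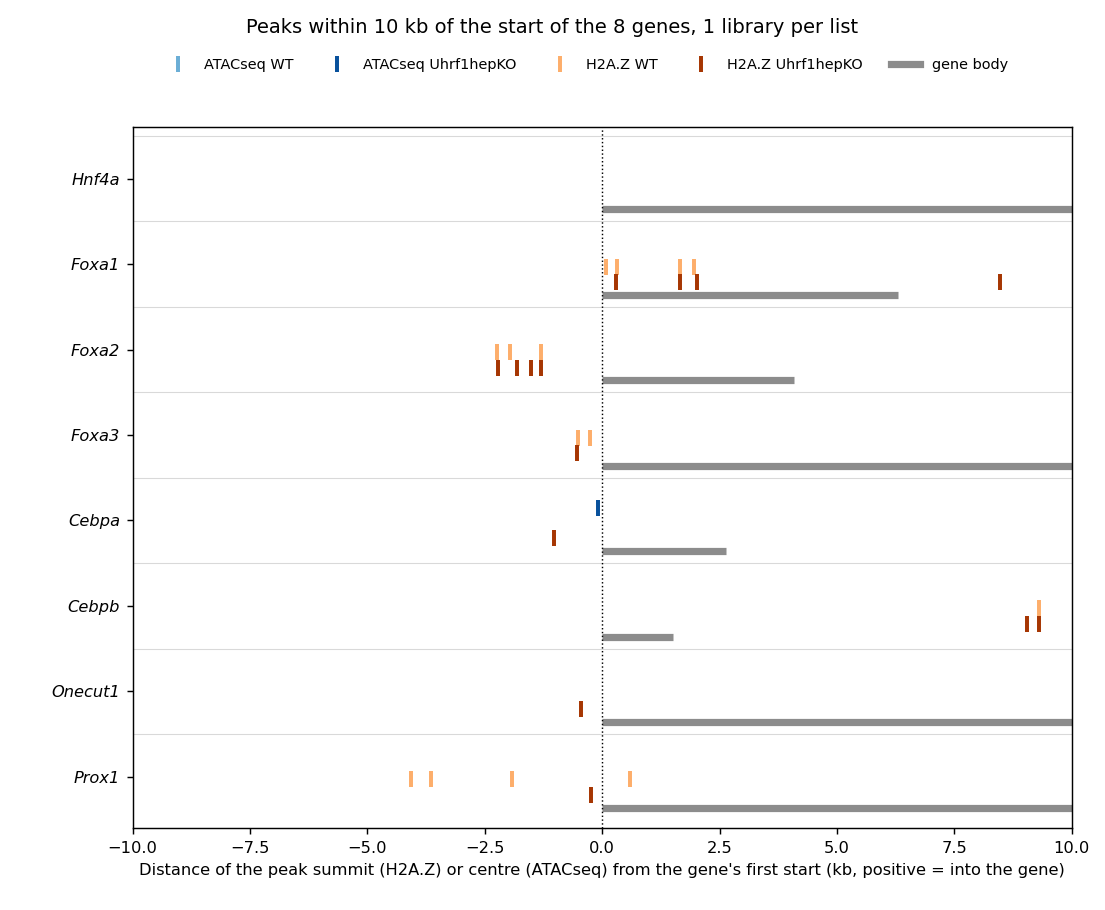
Position of the ATACseq peak centres and H2A.Z summits within 10 kb of the first start of each of the 8 genes (x axis, kb, oriented with each gene) in the 4 libraries, with the gene body as a grey bar. H2A.Z lies around the start at the Foxa genes and Prox1, at about +9 kb at Cebpb, and in Uhrf1hepKO alone at Cebpa and Onecut1, while the row of Hnf4a is empty and Cebpa has the only ATACseq peak.

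ATACseq peaks were few at these genes. Within 10 kb of the TSS, 0 of 8 genes had a peak in WT (interval 0 to 36.9%) and 1 of 8, Cebpa, in Uhrf1hepKO (12.5%, 0.316 to 52.7%). Of all protein-coding genes, 34.4% and 32.4% had one. A peak in Uhrf1hepKO and none in WT was found at 5.94% of all genes, and at 1 of the 8, while the opposite was found at 7.90% of all genes and at 0 of the 8. When every annotated transcript start of a gene was used, Hnf4a was added in both genotypes, which gave 1 of 8 genes in WT and 2 of 8 in Uhrf1hepKO against 37.6% and 35.7% of all genes. At the promoter itself, within 500 bp of the TSS, the count was 0 of 8 in WT and 1 of 8 in Uhrf1hepKO for ATACseq, where 25.3% and 22.9% of all genes had a peak, and 2 of 8 (Foxa1 and Foxa3) and 4 of 8 (Foxa1, Foxa3, Onecut1 and Prox1) for H2A.Z, where 43.2% and 41.9% did.

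The 3 ATACseq peaks lay at Hnf4a and Cebpa, and the sequence under them is shown because these are the sole accessible sites called at the 8 genes. Each is read 5′ to 3′ on the strand of its gene from GRCm38. Capitals mark matches to the motifs that were searched on both strands, which were FOXA (TGTTTAC), HNF4 (CAAAGTCCA, CAAAGTTCA or CAAAGGTCA), C/EBP (TTGCNNAA), HNF6 (ATCAATA), CRE (TGACGTCA), the CCAAT box (CCAAT), the GC box (GGGCGG) and the TATA box (TATAAA). The Uhrf1hepKO peak at Hnf4a is shown by its last 300 of 369 bases, and that at Cebpa by the 238 bases upstream of the TSS.
Hnf4a intron, WT ATACseq peak (chr2:163540773-163540904, plus strand): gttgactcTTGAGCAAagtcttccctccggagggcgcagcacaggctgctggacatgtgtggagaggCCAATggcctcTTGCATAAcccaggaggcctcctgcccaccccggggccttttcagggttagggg
Hnf4a P1, Uhrf1hepKO ATACseq peak (chr2:163546821-163547120, plus strand): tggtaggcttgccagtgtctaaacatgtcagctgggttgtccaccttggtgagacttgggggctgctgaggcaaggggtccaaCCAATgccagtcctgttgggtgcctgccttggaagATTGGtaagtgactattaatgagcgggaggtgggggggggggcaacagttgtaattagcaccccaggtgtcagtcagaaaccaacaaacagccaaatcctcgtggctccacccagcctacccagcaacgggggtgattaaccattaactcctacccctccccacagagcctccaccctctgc
Cebpa promoter, Uhrf1hepKO ATACseq peak (chr7:35119055-35119292, plus strand): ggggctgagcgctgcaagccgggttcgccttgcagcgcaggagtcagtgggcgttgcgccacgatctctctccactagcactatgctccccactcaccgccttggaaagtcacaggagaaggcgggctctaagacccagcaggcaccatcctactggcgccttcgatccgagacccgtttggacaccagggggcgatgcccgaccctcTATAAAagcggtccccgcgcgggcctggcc

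Hnf4a (ENSMUSG00000017950, chr2:163506808-163572910, plus strand) encodes the nuclear receptor HNF4A. It is known for an upstream promoter, P2, and a downstream promoter, P1, which serves adult liver. In the annotation the 4 other transcript starts lie 40009 to 43275 bp downstream of the first start. The single WT ATACseq peak had a fold of 3.67 and a width of 132 bp, and lay in an intron of Hnf4a and of the antisense gene Hnf4aos, from -6414 to -6283 bp of the start at 163547187. The single Uhrf1hepKO ATACseq peak had a fold of 3.69 and a width of 369 bp, and reached from -435 to -67 bp of the same start. It covered the annotated start at 163546817, that of a processed transcript of Hnf4a with no coding sequence, and lay from -65 to 303 bp of it. Both folds were low in their lists, at percentiles 16.9 and 32.1. A gap of 5848 bp separated the WT from the Uhrf1hepKO peak, so each genotype had 1 accessible site in this gene and neither site was called in the other.

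The intronic WT peak held 2 matches to the C/EBP motif, 1 on each strand, with a CCAAT box between them. A C/EBP match is in 12.9% of windows of 300 bases at all WT ATACseq peaks. The Uhrf1hepKO peak near P1 held 2 CCAAT boxes and no match to the FOXA, HNF4, C/EBP or HNF6 motif in the 300 bases shown. With 3 CpGs in 132 bp and 4 in 369 bp, or 2.27 and 1.08 per 100 bp, both were below the 5.69 and 5.15 CpGs per 100 bp of all WT and all Uhrf1hepKO ATACseq peaks. No H2A.Z peak lay in the 66103 bp of Hnf4a in either genotype, although H2A.Z was called just past its 3′ end in both, at chr2:163575144-163575238 in WT (fold 4.39) and chr2:163575152-163575277 in Uhrf1hepKO (fold 4.88), 2234 and 2242 bp beyond the gene. Upstream, the nearest H2A.Z peaks (folds 7.56 and 7.90) and the nearest ATACseq peaks (5.82 and 7.34) were about 34 kb away, at Fitm2 and its antisense gene 2310001K24Rik, in both genotypes.

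**Figure D2:**
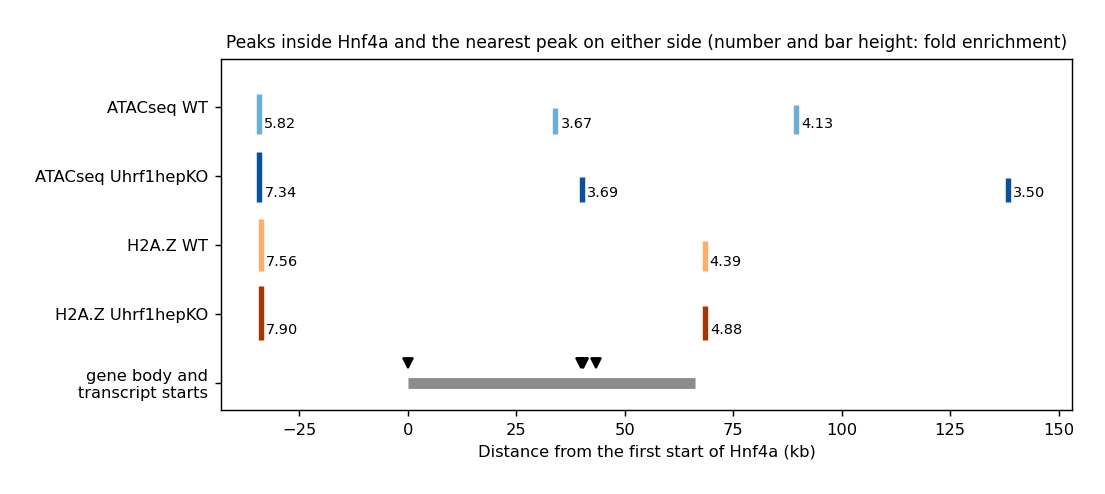
Peaks inside Hnf4a and the nearest peak on either side in each library, by distance from the first start of Hnf4a (x axis, kb). Bar height and the number beside each bar are the fold, the grey bar is the gene body and the triangles are its 5 annotated transcript starts. Each assay has a peak in both genotypes about 34 kb upstream, the ATACseq and H2A.Z peaks being adjacent, while inside the gene WT has an ATACseq peak at 34030 bp and Uhrf1hepKO at 40128 bp, and neither H2A.Z library has any.

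Cebpa (ENSMUSG00000034957, chr7:35119293-35121928, plus strand) encodes C/EBPα, which drives genes of energy metabolism in the hepatocyte. It had no peak of either assay in WT, where the nearest H2A.Z peak was 11134 bp and the nearest ATACseq peak 15428 bp from the TSS. In Uhrf1hepKO it had 1 of each. The ATACseq peak covered 238 bp upstream to 68 bp downstream of the TSS, with a fold of 4.39 at percentile 62.7 of its list. It was the most CpG-rich of the 31 peaks, with 31 CpGs in 307 bp, or 10.1 per 100 bp. Of the motifs searched, the part upstream of the TSS held a TATA box, 30 to 25 bp before the TSS. That motif is in 13.6% of the RefSeq promoters of 300 bases on GRCm38.p6, counted here and in what follows without chromosome 18. The H2A.Z peak lay 1022 bp upstream at its summit (chr7:35118205-35118416), in an exon of the antisense gene Gm45091, with a fold of 4.18 and 17 reads at the summit (exact Poisson 95% interval 9.90 to 27.2). Its lower bound is below the 11 reads at which the least covered WT peaks were called, so at this depth a site of equal strength in WT could have gone uncalled.

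Read together, 0 of 1 WT and 0 of 2 Uhrf1hepKO ATACseq peaks at these genes overlapped a peak of the other genotype, where 61.3% and 60.3% of all ATACseq peaks did. None of the 3 had an H2A.Z peak of the same liver within 500 bp, where 65.4% of all WT and 57.7% of all Uhrf1hepKO ATACseq peaks had one. With 1 and 2 peaks the exact intervals reach 97.5% and 84.2%, which hold those shares. The ATACseq background estimated roughly from the most frequent fold was higher in Uhrf1hepKO. Its part in the ATACseq peak called at Cebpa in Uhrf1hepKO alone was not tested. For the other 6 genes the nearest ATACseq peak was 32298 to 351007 bp from the TSS, the shortest distance being that of Foxa3 in WT and the longest that of Foxa1 in WT.

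The 28 H2A.Z peaks are described next, gene by gene, with the reads at each summit. The fold and p-value of a summit together give the whole number of reads behind it, which ranged from 14 to 25 in the 14 WT peaks and from 17 to 33 in the 14 Uhrf1hepKO peaks. Medians were 19.5 and 19, against 21 and 23 over the whole lists. To show the CpG content that H2A.Z covered at these genes, 1 peak of each of 6 genes follows, chosen as a peak with an overlap in the other genotype where there was one, and for Onecut1 and Prox1 as the single Uhrf1hepKO peak. Capitals mark CpGs.
Foxa1 intron, H2A.Z (chr12:57545232-57545326, minus strand): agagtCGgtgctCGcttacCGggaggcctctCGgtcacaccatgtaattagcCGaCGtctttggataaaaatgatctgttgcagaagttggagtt
Foxa2 upstream, H2A.Z (chr2:148048220-148048355, minus strand): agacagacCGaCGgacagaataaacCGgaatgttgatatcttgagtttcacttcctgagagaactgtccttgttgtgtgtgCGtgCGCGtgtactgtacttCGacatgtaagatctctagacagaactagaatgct
Foxa3 upstream, H2A.Z (chr7:19023995-19024122, minus strand): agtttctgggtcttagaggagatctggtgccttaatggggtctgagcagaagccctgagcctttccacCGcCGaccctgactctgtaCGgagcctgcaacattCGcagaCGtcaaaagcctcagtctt
Cebpb downstream, H2A.Z (chr2:167698158-167698295, plus strand): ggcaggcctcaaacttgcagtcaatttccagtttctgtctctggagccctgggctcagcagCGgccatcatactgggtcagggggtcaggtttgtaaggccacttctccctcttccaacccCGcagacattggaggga
Onecut1 upstream, H2A.Z (chr9:74861376-74861572, plus strand): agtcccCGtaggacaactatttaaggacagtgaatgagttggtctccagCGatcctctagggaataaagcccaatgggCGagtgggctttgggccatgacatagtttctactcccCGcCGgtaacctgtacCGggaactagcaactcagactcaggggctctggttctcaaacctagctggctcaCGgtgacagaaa
Prox1 upstream, H2A.Z (chr1:190170872-190170972, minus strand): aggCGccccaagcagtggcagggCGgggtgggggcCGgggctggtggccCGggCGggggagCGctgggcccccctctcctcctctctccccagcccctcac

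Foxa1 (ENSMUSG00000035451, chr12:57540628-57546916, minus strand), with Foxa2 one of the pioneer factors that open liver enhancers in development, had 4 H2A.Z peaks in each genotype. In WT the summits lay 70, 323, 1650 and 1962 bp into the gene, with 20, 22, 15 and 23 reads and folds of 5.12, 5.61, 3.90 and 5.85. In Uhrf1hepKO they lay at 300, 1653, 2014 and 8460 bp, with 19, 33, 19 and 18 reads and folds of 4.65, 7.90, 4.65 and 4.42. Thus 3 sites were found in both livers, the pairs 323 and 300, 1650 and 1653, and 1962 and 2014 bp into the gene. The exonic peak at +70 was found in WT only, 98 bp from the nearest Uhrf1hepKO peak, and the intergenic peak at +8460, past the 3′ end, in Uhrf1hepKO only. The intronic site at +1650 had the lowest WT and the highest Uhrf1hepKO summit of the 8 summits at this gene, 15 (8.40 to 24.7) in WT and 33 (22.7 to 46.3) in Uhrf1hepKO, and the intervals still overlapped. No other gene of the 8 had as many H2A.Z peaks in both livers, and 14.3% of protein-coding genes in WT and 12.0% in Uhrf1hepKO had as many or more within 10 kb.

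Foxa2 (ENSMUSG00000037025, chr2:148042877-148046969, minus strand) had all its H2A.Z in intergenic DNA upstream, and none at the TSS or in the gene. WT had 3 summits, at -1303, -1968 and -2246 bp, with 15, 21 and 16 reads and folds of 3.90, 5.36 and 4.14. Uhrf1hepKO had 4, at -1301, -1518, -1821 and -2212 bp, with 22, 19, 27 and 17 reads and folds of 5.35, 4.65, 6.51 and 4.18. Every WT peak overlapped a Uhrf1hepKO peak, and only the Uhrf1hepKO peak at -1518 had no partner, with a WT peak 83 bp away. The summits at -1303 and -1301 bp were 2 bp apart. Over the cluster of 3 and 4 peaks the intervals of all 4 overlapping pairs overlapped.

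Foxa3 (ENSMUSG00000040891, chr7:19013284-19023538, minus strand), the remaining FOXA gene, had summits at -266 bp (19 reads, fold 4.87) and -519 bp (25 reads, fold 6.34) in WT and at -530 bp (22 reads, fold 5.35) in Uhrf1hepKO. The site at -519 and -530 bp was found in both livers, with summits 11 bp apart. The peak at -266 bp was called in WT only, 116 bp from the Uhrf1hepKO peak. These peaks lie between Foxa3 and Sympk, a gene read in the opposite direction whose TSS is 839 bp away, and the shared site is nearer to the TSS of Sympk (320 bp in WT, 309 bp in Uhrf1hepKO) than to that of Foxa3. They are therefore counted for both genes, and the peak lists cannot assign them to one.

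Cebpb (ENSMUSG00000056501, chr2:167688915-167690418, plus strand) encodes C/EBPβ, which is induced in the acute phase response and early in liver regeneration, and is also an immediate early gene. Its promoter is the richest in CpGs of the 8, with 145 within 500 bp of the TSS, yet no peak of either assay lay at the promoter or in the gene. H2A.Z was found about 9 kb downstream, in an intron of the lincRNA gene A530013C23Rik. WT had a summit at +9290 bp (20 reads, fold 5.12), and Uhrf1hepKO had one at +9302 bp (19 reads, fold 4.65) and another at +9048 bp (26 reads, fold 6.27). The first site was thus found in both livers with 20 and 19 reads. The second was called in Uhrf1hepKO only, 133 bp from the WT peak. Its lower bound of 17.0 reads is above the 11 reads of the least covered WT calls. These sites held 2 CpGs each, and 1.34 to 1.57 CpGs per 100 bp was the lowest of all the H2A.Z peaks described here.

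Onecut1 (ENSMUSG00000043013, chr9:74861921-74891781, plus strand) encodes HNF6, a factor of hepatocyte and bile duct differentiation. In WT it had no peak, and the nearest H2A.Z peak was 13378 bp from the TSS. In Uhrf1hepKO it had 1 H2A.Z peak, with its summit 445 bp upstream (21 reads, 13.0 to 32.1, fold 5.11), in an intron of the lincRNA gene Gm20649. The lower bound is above the 11 reads of the least covered WT calls. A WT site with that many reads was within reach of the caller at the background level. This leaves out the counting error of the WT library, so a difference between genotypes is not shown.

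Prox1 (ENSMUSG00000010175, chr1:190118035-190170714, minus strand) encodes a homeobox factor needed for hepatoblast migration, which is also known from lymphatic endothelium. WT had 4 H2A.Z peaks. One lay 597 bp into the gene, in an exon, with 24 reads and a fold of 6.09. The others lay upstream at -1917, -3646 and -4079 bp, in introns of the antisense gene Prox1os, with 17, 14 and 18 reads and folds of 4.39, 3.66 and 4.63. Uhrf1hepKO had a single peak at -232 bp with 19 reads (11.4 to 29.7) and a fold of 4.65, and it overlapped none of the 4. This peak had the highest GC content of the 31, at 80.2%, and holds 2 GC boxes. Of the 4 WT peaks, 3 had lower bounds below the 12 reads of the least covered Uhrf1hepKO calls, and the one at +597 bp, with 15.4, did not.

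**Figure D3:**
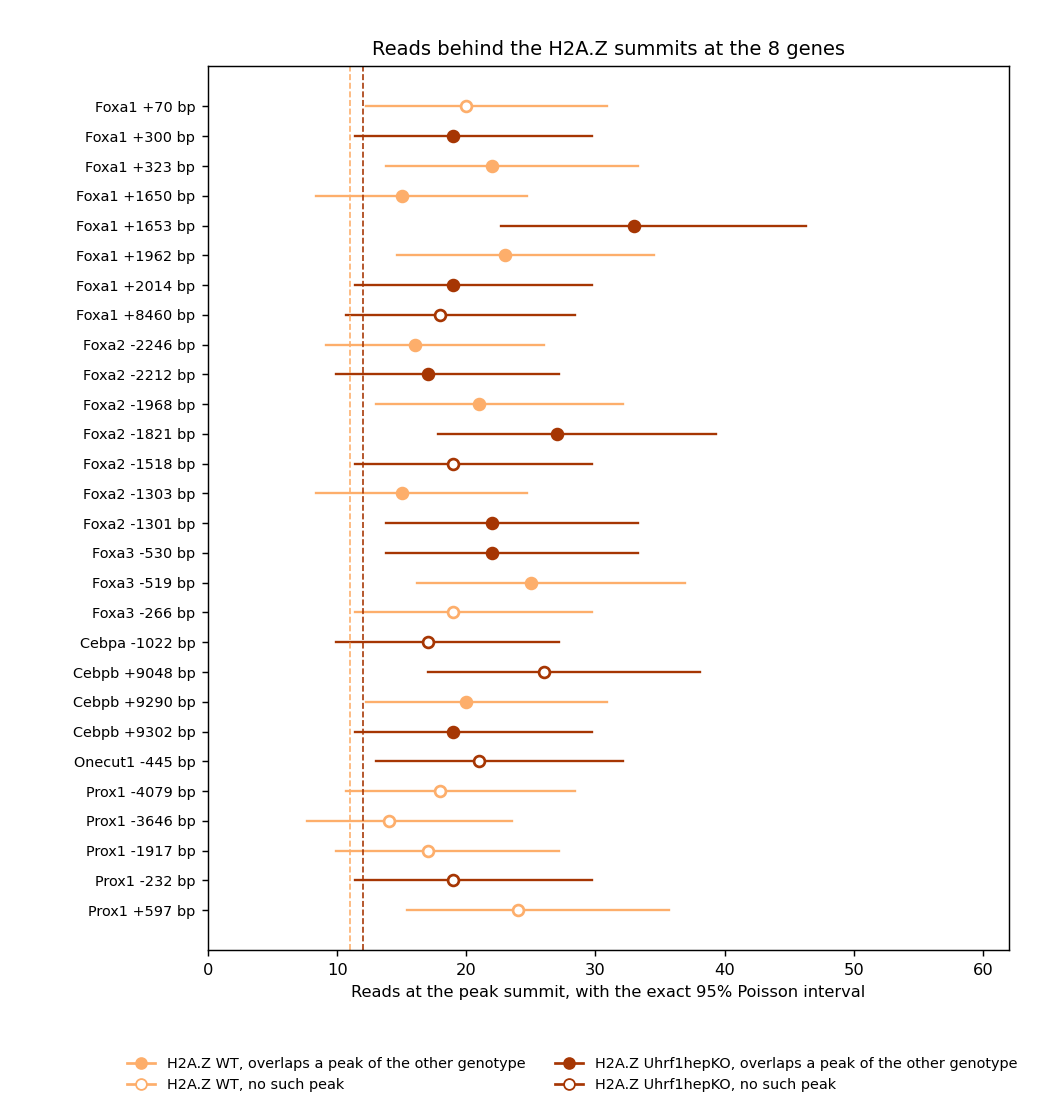
Reads at the summit of each of the 28 H2A.Z peaks (x axis), with the exact 95% Poisson interval as a line, ordered by gene and by distance of the summit from the TSS. Filled points overlap a peak of the other genotype and open points do not, and the dashed lines are the lowest reads called at the background level, 11 in WT and 12 in Uhrf1hepKO. The values run from 14 to 33, and the Uhrf1hepKO summit of Foxa1 at +1653 bp is the highest.

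Across the 8 genes, 8 of 14 WT and 8 of 14 Uhrf1hepKO H2A.Z peaks overlapped a peak of the other genotype, which is 57.1% (28.9 to 82.3) in each. Over the whole lists the shares were 70.0% and 75.6%, which both intervals hold. The overlaps made 9 pairs, with the WT summit higher in 5 and the Uhrf1hepKO summit higher in 4, and the intervals overlapped in all 9. Summits in a pair were 2 to 244 bp apart, with a median of 23.0. Of the 12 peaks without a partner, 6 had a lower bound below the lowest reads called in the other list, 4 of 6 in WT and 2 of 6 in Uhrf1hepKO. At these 6, a site of equal strength in the other library could have gone uncalled at this depth. The lists do not give the reads of the other library there, so no difference was shown. For the rest, the check leaves out the counting error of the other library, so no difference was shown there either. Some passed narrowly, as the WT peak of Foxa1 at +70 bp did with a lower bound of 12.2 against 12.

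The 3 Foxa genes and Cebpb thus shared sites between the livers, and Cebpa, Onecut1 and Prox1 shared none. The order of the genotypes by genes with an H2A.Z peak, 5 in WT and 7 in Uhrf1hepKO, changed with a cut on fold. Peaks with a fold under the median of their own list, 5.12 in WT and 5.35 in Uhrf1hepKO, were left out. Then 5 genes had one in WT and 4 in Uhrf1hepKO, so that the order turned, and 7 of 14 WT and 5 of 14 Uhrf1hepKO peaks were left. These cuts are unequal in reads, as the Onecut1 Uhrf1hepKO peak with 21 reads was left out and the Cebpb WT peak with 20 was kept. The turn of the order therefore cannot be told apart from the unequal cuts.

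Pooled over the 14 peaks of each genotype, the sequence under H2A.Z at these genes held 4.50 CpGs per 100 bp in WT and 4.35 in Uhrf1hepKO, against 2.34 and 2.30 pooled over the lists. The 3 Cebpb peaks, with 1.34 to 1.57, were below the medians of single peaks of the lists, 1.64 and 1.66. The peaks at the 8 genes were taken from around starts, many of which are rich in CpGs, and the part of that choice in the difference was not tested. In windows of 300 bases at the summits, a CCAAT box was found at 5 of 14 peaks in each genotype, and 31.8% and 31.9% of windows over the lists hold one. The FOXA, HNF4 and C/EBP motifs were each found at 1 of 14 in each genotype, where 6.00%, 2.84% and 14.2% of all WT windows and 5.86%, 2.79% and 14.0% of all Uhrf1hepKO windows hold them, and HNF6 at 0 of 14. The HNF4 match lay at the Foxa1 site of +323 and +300 bp in both livers, and the C/EBP match at that of +1650 and +1653 bp in both.

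The RefSeq table held 12 promoters of 300 bases for the 8 genes. A GC box was in 10 of the 12, from 7 genes, while it is in 35.7% of the 32851 promoters counted, and Cebpa was the gene without one. This motif holds a CpG, and the 8 genes had a median of 63 CpGs within 500 bp of the TSS against 41 over all protein-coding genes. The part of CpG number in this count was not tested. A CCAAT box was in 6 of 12 against 37.4%, and a TATA box in 5 of 12 against 13.6%, counted on either strand and at any position. The TATA boxes of Foxa3 (-36 to -31 bp) and Cebpa (-30 to -25 bp) lay upstream of the start on the strand of the gene. That of Cebpb lay downstream of the start, and those of Foxa2 and Prox1 lay on the opposite strand. Of the motifs of the factors these genes encode, FOXA was in 1 promoter, that of Foxa1 (3.65% of those counted), HNF6 in 2, those of Foxa2 and of Hnf4a at its first start (2.05%), and neither HNF4 (1.33%) nor C/EBP (10.8%) in any. The CRE, a site that cyclic AMP signalling uses, was in 0 of 12 (1.79%). Promoters of 1 gene can share sequence, and a match of letters does not show binding.

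Both assays follow the number of CpGs around the TSS in the whole annotation, so each gene was also set beside genes of its own CpG class. The 21938 genes were ranked by how many CpGs lie within 500 bp of their TSS and split into 10 classes. Hnf4a had 16 CpGs and fell in class 4, Foxa1 with 36 and Foxa2 with 41 in class 5, Foxa3 with 52 in class 6, Prox1 with 74 in class 8, Onecut1 with 81 in class 9, and Cebpa with 105 and Cebpb with 145 in class 10. ATACseq peaks within 10 kb were found at 20.0% of the genes of class 4 and 57.2% of those of class 8 in WT. Averaged over the classes of the 8 genes, 42.5% of genes had a WT and 39.3% a Uhrf1hepKO ATACseq peak, and 70.8% and 68.4% an H2A.Z peak. The 8 genes, with 0 and 12.5% for ATACseq, were thus below the mean share of their own classes in both libraries, and for H2A.Z, with 62.5% and 87.5%, they were below it in WT and above it in Uhrf1hepKO. For the 2 C/EBP genes of class 10, 76.8% of genes had a WT H2A.Z peak and 49.0% a WT ATACseq peak.

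**Figure D4:**
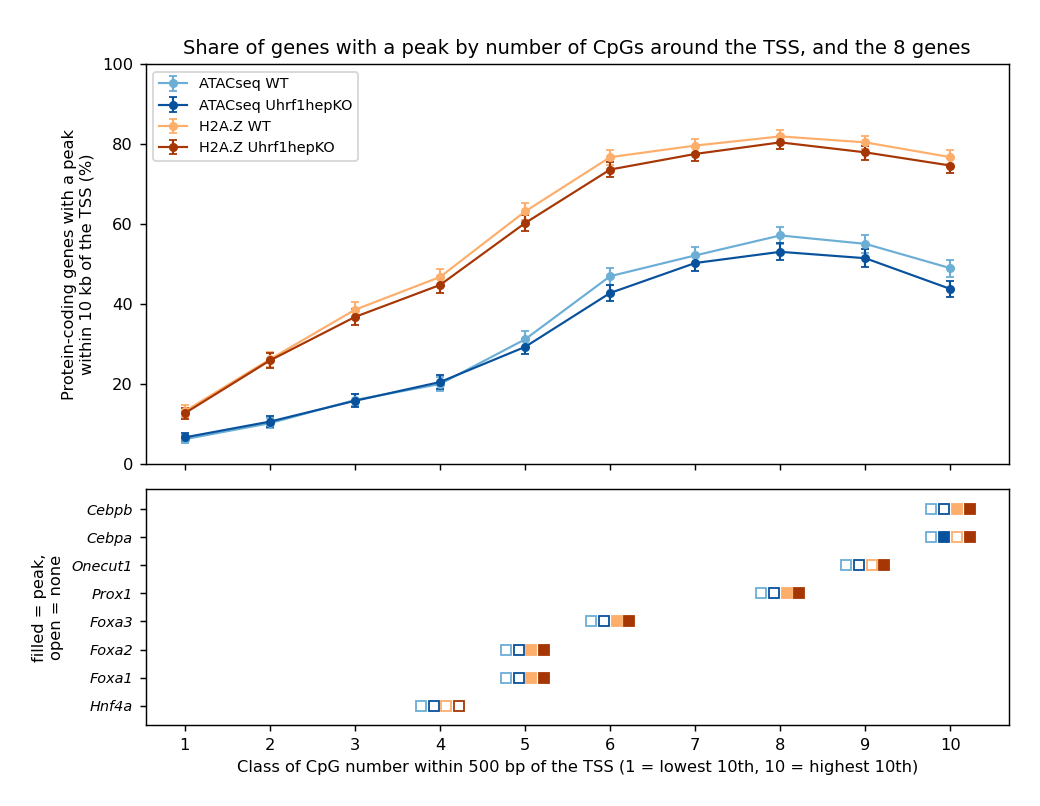
Upper panel, share of protein-coding genes with a peak less than 10 kb from their TSS (y axis, percent, with exact 95% binomial intervals) by CpG class of the start (x axis) in each library. Lower panel, the 8 genes in their class, with a filled square where the library had a peak. The shares climb to class 8, at 82.0% for WT H2A.Z and 57.2% for WT ATACseq, while of the 8 genes Cebpa alone has a filled ATACseq square.

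The 8 genes were also set beside 3 other lists. Of 20 other hepatocyte regulators, 14 had an H2A.Z peak within 10 kb in WT and 12 in Uhrf1hepKO, and 5 and 7 had an ATACseq peak. Among them were the pregnane X receptor gene Nr1i2 and Onecut2, a relative of Onecut1, with 5 WT H2A.Z peaks each, and the constitutive androstane receptor gene Nr1i3 with 4. The highest WT ATACseq folds were 4.45 at Cebpg, 4.05 at Creb3l3 and 3.91 at Onecut2. Cebpg, a member of the C/EBP family like Cebpa, had a CpG-rich start too, with 111 CpGs, and had an ATACseq peak in both livers (4.45 and 5.59). Cebpd, of the same family and with 99 CpGs, had an ATACseq peak in Uhrf1hepKO only (fold 3.45), as Cebpa did. Of 12 lineage factors of other organs, 3 had an H2A.Z peak in each genotype, led by Cdx2 and Gata1 with 2 peaks each in WT and Neurod1 with 1, and 0 had an ATACseq peak in WT and 1 in Uhrf1hepKO. In WT H2A.Z the shares were 62.5% for the 8 genes, 70.0% (45.7 to 88.1) for the other hepatocyte regulators and 25.0% (5.49 to 57.2) for the lineage factors. The intervals of the first and last overlap, and the difference was not tested. Of the other nuclear receptor genes among these regulators, Hnf4g, Nr5a2, Nr1h4, Nr1i2 and Nr1i3 had an H2A.Z peak in WT. In that liver Nr0b2, Rxra and Ppara had none, like Hnf4a. In Uhrf1hepKO, Nr0b2 had an H2A.Z peak with a fold of 8.13, Nr1i3 had none, and Rxra and Ppara again had none.

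**Figure D5:**
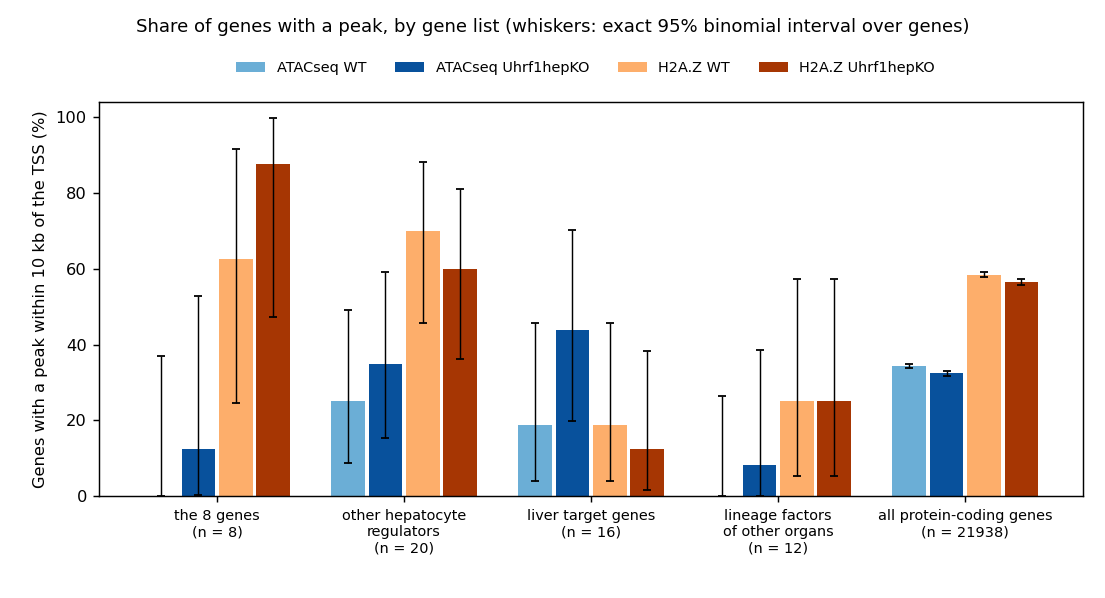
Share of genes that have a peak less than 10 kb from the TSS (y axis, percent) for the 8 genes, 20 other hepatocyte regulators, 16 liver target genes, 12 lineage factors of other organs and all 21938 protein-coding genes, in the 4 libraries. Bars start at 0 and whiskers are exact 95% binomial intervals over genes, which are wide for the short lists. H2A.Z is at 62.5% and 87.5% of the 8 genes and ATACseq at 0 and 12.5%.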

How the data were processed

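ATACseq and H2A.Z ChIPseq libraries of 1 WT and 1 Uhrf1hepKO liver were used. Reads were aligned by the authors to GRCm38.p4 (BWA-MEM) and cleaned with PICARD, with removal of duplicates for ChIPseq. Peaks were called by the authors in each library on its own with MACS2 at a p-value of 0.05, in broad mode for ATACseq. The deposited lists end at q-values of 0.0997 (WT) and 0.0993 (Uhrf1hepKO) for ATACseq and 0.05 and 0.0489 for H2A.Z, stricter than that p-value alone, and the source of this limit is not given in the sources used here. The submitters' processing notes also name FastQC 0.11.5 and Trimmomatic. For H2A.Z the mode of calling, and for both assays any control, any shift of reads and the MACS2 version, are not given in the sources used here. Single-end ATACseq reads called as paired-end alignments, low depth and unplaced repeats can each leave sites uncalled. Each deposited peak has a display score, a fold (the ratio of pileup to local background, each with 1 read added), a −log10 p-value and a −log10 q-value, and for H2A.Z a summit, another value in bp. The authors' caller averaged these over an ATACseq peak and took them at the summit for H2A.Z.

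Genes were taken from GENCODE vM21 and sequence from RefSeq GRCm38. Overlaps needed 1 bp, and the TSS was the 5′ end of the gene. Summit reads were solved from fold and p-value as a whole pileup whose Poisson tail met the deposited −log10 p-value to 0.005, which succeeded for 99.9% of WT and 94.0% of Uhrf1hepKO H2A.Z peaks. Intervals are exact binomial or exact Poisson at 95%. The overlap and read steps were tested on simulated data. The lists alone inform on depth. The total of reads per library was not used here.

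The members, motifs and gene lists were chosen with earlier results of these data known. Named were all 8 genes and, of each other list, the 3 genes with the most WT H2A.Z peaks (ties included) and up to 3 with a WT ATACseq peak, by fold, apart from genes that are not reported here. Sox9, Cebpd, the nuclear receptor genes and the peaks around Hnf4a were named after their values were seen. Alternatives were the start of any transcript, a window of 5 kb, peaks at or above the median fold, positions by summit or centre, and other overlap rules. The tools were pysam 0.24.0, scipy 1.17.1, pandas 2.3.3, numpy 2.4.6 and matplotlib 3.10.9 in Python 3.11.15.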

Additional observations from a re-analysis of the deposited data

How the results depend on the processing

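Of 52 values under alternative settings, 41 stayed within 1.5 times the value reported, and 11 moved further. The intervals were not used for this division, and some of the values that moved still lie within the interval of the value reported. With the start of any transcript, the genes with an ATACseq peak went from 0 to 1 in WT and from 1 to 2 in Uhrf1hepKO, since the Hnf4a peaks lie by its downstream starts. Peaks whose fold was under the median of their own list were also left out. For ATACseq, the peaks at the 8 genes then went from 1 to 0 in WT and from 2 to 1 in Uhrf1hepKO. For H2A.Z they went from 14 to 7 in WT and from 14 to 5 in Uhrf1hepKO. The genes with an H2A.Z peak in Uhrf1hepKO went from 7 to 4, while WT kept a count of 5. This turns the order of the genotypes, under cuts that are unequal in reads between the lists. The H2A.Z peaks that overlap one of the other genotype went from 8 to 5 in each list when 50% of both peaks had to overlap, and from 8 to 2 in each when both had to reach the median fold. When a peak of the other genotype within 500 bp was enough, the count rose from 8 to 10 in each list. A filter on fold removes peaks by construction. No paired analysis was possible because each genotype has 1 library per assay and no result comes from a test. For the same reason no replicate could be left out. Depth limits the lists to sites of at least 11 reads in WT and 12 in Uhrf1hepKO H2A.Z at the background level.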

Other observations

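The liver genes known as targets of these factors have fewer CpGs around the TSS than most genes, with a median of 12 within 500 bp against 41 over all protein-coding genes. Of 16 target genes, 3 had ATACseq peaks in a window of 10 kb around the TSS in WT and 7 in Uhrf1hepKO, and 3 and 2 had an H2A.Z peak, against 34.4%, 32.4%, 58.4% and 56.5% of all genes. These are 18.8% (4.05 to 45.6) and 43.8% (19.8 to 70.1) of the targets for ATACseq, and 18.8% (4.05 to 45.6) and 12.5% (1.55 to 38.3) for H2A.Z. At the promoter, within 500 bp, H2A.Z was at 0 of 16 in both livers (interval 0 to 20.6%), and ATACseq at 1 and 5, against 43.2% and 41.9% of all genes for H2A.Z and 25.3% and 22.9% for ATACseq. The part of the low CpG number in these counts was not tested. Tat, which breaks down tyrosine, had a WT ATACseq peak with a fold of 4.01 and a Uhrf1hepKO one of 3.36, and Pck1, a gluconeogenic enzyme, had 2 peaks in WT with a highest fold of 3.54 and 1 in Uhrf1hepKO with 3.59. Neither had H2A.Z. Alb, Cyp7a1 and Trf had an ATACseq peak in Uhrf1hepKO only, with folds of 4.18, 3.60 and 3.76, named here after their values were seen. The median fold of that list was 4.05, below that of Alb and above those of Cyp7a1 and Trf. The background of the Uhrf1hepKO ATACseq library, estimated roughly from the most frequent fold, was 1.29 times that of WT. Its part in these calls was not tested.

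H2A.Z was at Fgb, the fibrinogen beta chain gene, with 3 peaks in WT and 5 in Uhrf1hepKO (highest folds 7.07 and 6.74), and at the transthyretin gene Ttr with 2 peaks in WT (highest fold 6.82) and none in Uhrf1hepKO. The apolipoprotein gene Apoa2 had 3 H2A.Z peaks in WT and none in Uhrf1hepKO, and its neighbour Nr1i3, whose TSS is 11084 bp away, had 4 and none. All 3 H2A.Z peaks of Apoa2 are among the 4 of Nr1i3, so these are 1 site counted for a pair of genes. ATACseq peaks lay within 10 kb of both genes in each liver, and the pair shared 2 of them in WT and 1 in Uhrf1hepKO. With 1 library per genotype the difference in H2A.Z was not tested.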
